A study of Mus musculus with 8 samples.

Results

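Purinergic signalling is the set of receptors and enzymes by which microglia, the resident macrophages of the brain, sense extracellular nucleotides and adenosine. Described here are 10 genes of this system: the G protein-coupled P2Y receptors *P2ry12*, *P2ry13*, *P2ry6* and *P2ry14*, the related receptor *Gpr34*, the ATP-gated channels *P2rx4* and *P2rx7*, the adenosine receptors *Adora3* and *Adora2a*, and the ectonucleotidase *Entpd1*. They were chosen by symbol, with earlier results of these data known, so shares of them set against all genes below are descriptions and not tests. Their rows were found by Ensembl identifier among the 55573 genes of the count matrix. All 10 passed the filter on low counts (10 or more counts in 4 or more libraries) and so were among the 20153 genes tested.

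RNA was sequenced from sorted microglia of 8 mice aged 60 days, with 1 library each: 4 mutants, Smad2/3 fl/fl with Cx3cr1 Cre, and 4 controls. SMAD2 and SMAD3 are the transcription factors of canonical TGFβ signalling, and Cx3cr1 Cre deletes floxed alleles in microglia and in related macrophages such as those at the borders of the brain, so both cell types are targeted in this model. GEO's text calls the controls wild-type littermates, whereas the Methods say that the colony held no true wild types and that controls were in general heterozygous for the floxed allele and carried Cre, so both groups may share Cre and 1 floxed allele. The Methods describe a Percoll gradient followed by a gate on tdTomato, CD45 and CD11b. The sex of the mice is not given in the labels.

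When cells are damaged or active they release ATP, which enzymes on the cell surface cut stepwise to ADP, AMP and adenosine. NTPDase1 (CD39), the product of *Entpd1*, cuts both ATP and ADP on microglia, P2Y and P2X receptors read the nucleotides, and adenosine receptors read the end product. P2RY12 in particular is a Gi-coupled ADP receptor that directs microglial processes toward injury and is widely used to tell homeostatic microglia from other macrophages.

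Of the 10 genes, 5 were lower in mutants, 1 was higher and 4 made no call in edgeR's test. The genes that fell were *Adora3*, *P2ry12*, *Gpr34*, *P2ry13* and *Entpd1*, and the gene that rose was *P2rx4*. *P2ry6*, *P2rx7*, *P2ry14* and *Adora2a* made no call. The test was edgeR's quasi-likelihood test with Benjamini-Hochberg adjustment over all tested genes, a call was an adjusted p under 0.05, and a log2 fold change is that of mutants over controls, with its standard error (SE). Over all 20153 tested genes, 7.97% were called lower and 4.36% were called higher. An unadjusted p under 0.05 was reached by 8 of the 10 genes, against 28.7% of all tested genes. DESeq2 called 6 of the 10 lower, *P2rx7* among them, and 1 higher, against 12.4% and 9.99% of the 20153 genes. The 2 groups did not overlap in any library for 7 of the 10 genes, against 22.1% of all tested genes, and the median log2 fold change was -1.04 over the 10 genes and 0.01 over all tested genes.

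**Figure D1:**
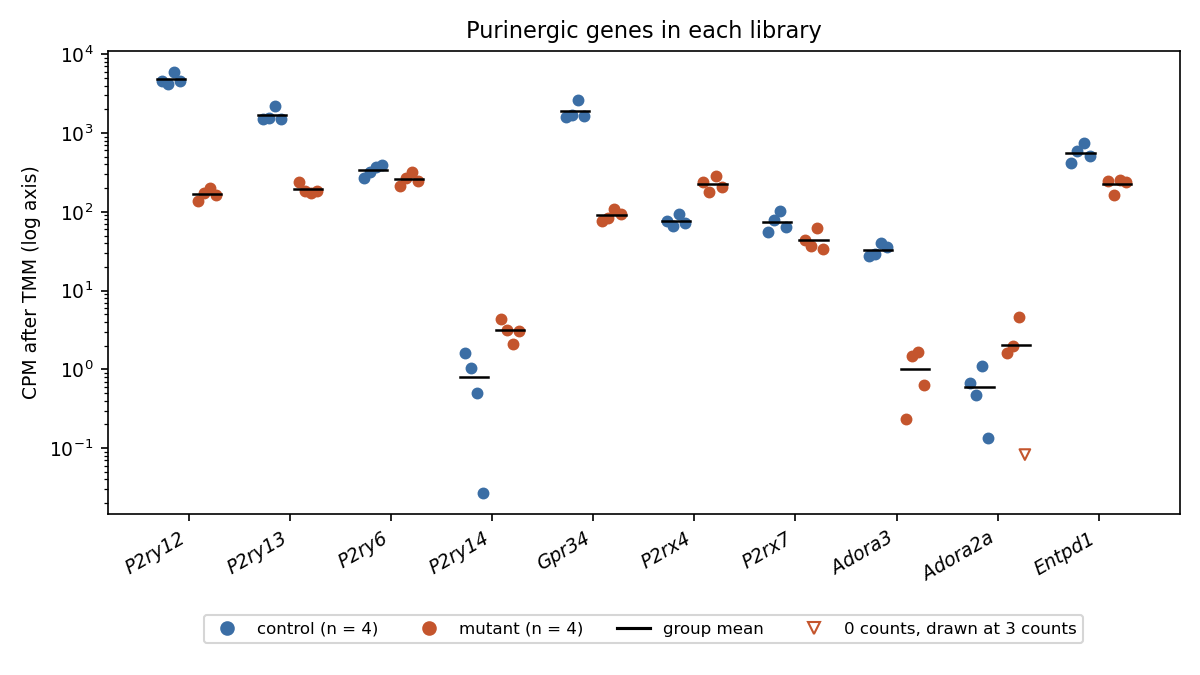
Expression of the 10 purinergic genes in each library, as TMM-scaled CPM (counts scaled to library size) on a log axis, with 4 control and 4 mutant mice and the group mean as a bar. *P2ry12*, *P2ry13*, *Gpr34*, *Adora3* and *Entpd1* were lower in every mutant than in every control, and *P2rx4* and the sparse *P2ry14* were higher in every mutant; *Adora2a* had 0 counts in mutant 4, drawn at the level of 3 counts.

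Several facts of the libraries stand beside every value below. The libraries held between 35639502 and 41946479 counts, of which the 10 genes together took 325826 to 434738 in a control and 42349 to 50868 in a mutant. *Smad3* was 48.7 ± 7.13 CPM in controls and 19.3 ± 11.0 CPM in mutants (SD, n = 4 each), its log2 fold change being -1.33 (SE 0.36, adjusted p = 0.0429 in edgeR's test), with mutant 3 at 35.1 CPM, and *Smad2* was 74.6 ± 13.8 and 58.8 ± 15.0 CPM (adjusted p = 0.340). Summed over 10 defining markers of microglia, expression was 27042 to 42213 CPM in controls and 5826 to 8144 CPM in mutants, 8 of the 10 were lower, and none was at 0 in any library. Summed over 7 markers of border macrophages it was 52.9 to 99.1 CPM in controls and 1632 to 2537 CPM in mutants, and 5 of the 7 were higher. The part of these shifts in the results was not tested, and in sorted bulk RNA fewer cells of a type and less RNA per cell cannot be told apart. *Xist* was 99.5 to 183 CPM in controls and at most 0.562 CPM in mutants, while the Y-linked *Ddx3y* was at most 0.224 CPM in controls and at least 9.74 CPM in mutants, so sex-linked expression split the libraries exactly as genotype did, and sex and genotype cannot be told apart.

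The sequences just upstream of 4 of these genes are shown because, among the genes with an entry in the RefSeq promoter table, they carry the largest called changes: *P2ry12* and its neighbour *P2ry13*, *Adora3*, and *P2rx4*, the gene that rose. Each run is the 250 bases before the RefSeq transcription start on GRCm38.p6, written 5′ to 3′ on the strand of the gene, with matches to searched motifs in capitals. The motifs, read on both strands, were the SMAD half-site CAGAC, the SMAD palindrome GTCTAGAC, the GC-rich SMAD element GGCGC, the PU.1 core GGAAGT and the AP-1 site TGANTCA.
P2ry12, chr3:59262986-59263235, minus strand: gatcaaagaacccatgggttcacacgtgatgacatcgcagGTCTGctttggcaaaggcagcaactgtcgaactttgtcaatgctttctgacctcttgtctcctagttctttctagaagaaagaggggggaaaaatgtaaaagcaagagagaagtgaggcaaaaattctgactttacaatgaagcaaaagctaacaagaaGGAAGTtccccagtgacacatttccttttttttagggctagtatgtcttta
P2ry13, chr3:59210883-59211132, minus strand: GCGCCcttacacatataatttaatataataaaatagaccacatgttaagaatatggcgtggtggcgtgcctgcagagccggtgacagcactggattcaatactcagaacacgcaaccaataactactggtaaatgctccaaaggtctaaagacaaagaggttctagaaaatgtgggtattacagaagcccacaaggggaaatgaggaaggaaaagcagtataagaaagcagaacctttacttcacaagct
Adora3, chr3:105904171-105904420, plus strand: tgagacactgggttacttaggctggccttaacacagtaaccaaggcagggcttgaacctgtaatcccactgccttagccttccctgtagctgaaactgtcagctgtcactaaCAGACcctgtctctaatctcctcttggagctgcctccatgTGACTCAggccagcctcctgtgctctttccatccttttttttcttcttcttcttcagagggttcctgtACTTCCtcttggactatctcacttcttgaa
P2rx4, chr5:122707294-122707543, plus strand: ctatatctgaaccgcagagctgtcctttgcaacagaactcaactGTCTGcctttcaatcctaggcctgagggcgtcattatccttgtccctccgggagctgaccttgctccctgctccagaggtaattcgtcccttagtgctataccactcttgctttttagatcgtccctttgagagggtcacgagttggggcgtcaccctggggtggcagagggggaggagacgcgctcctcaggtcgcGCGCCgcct
In the *P2ry12* run the SMAD half-site lay 210 bases and the PU.1 core 51 bases before the start. In the *P2ry13* run the GC-rich element lay at the upstream edge, 250 bases before the start. *Adora3* had a SMAD half-site at 138, an AP-1 site at 98 and a PU.1 core at 30 bases, and *P2rx4* a SMAD half-site at 206 and a GC-rich element at 9 bases. No match overlapped another in these 4 runs, and none held the palindrome.

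Such letters are common upstream of genes. Among the 32817 promoters of the same length in the RefSeq table, 42.2% held CAGAC, 32% GGCGC, 19.7% GGAAGT, 6.75% TGANTCA and 0.168% the palindrome. The table held promoters of 7 of the 10 genes. *P2ry6*, *Gpr34* and *Adora2a* had no entry. A match describes the letters and is not a measured site, and the gene that rose shared the half-site with *P2ry12* and *Adora3*.

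*P2ry12* (ENSMUSG00000036353) occupies 59216272 to 59262871 on the minus strand of chromosome 3 (GRCm38, the build also called mm10, with GENCODE M21 gene models). In controls 1 to 4 it was at 4613, 4189, 5979 and 4559 CPM, and in mutants 1 to 4 at 139, 173, 203 and 161 CPM. The highest mutant was thus far below the lowest control. Its mean fell from 4835 ± 786 to 169 ± 26.6 CPM (SD, n = 4 each), 28.6-fold, with a log2 fold change of -4.84 (SE 0.21, adjusted p = 9.8e-06 in edgeR's test). Counted from the lowest log2 fold change, it stood 134th of the 20153 tested genes. Even so, the mutant libraries held 5353 to 8007 counts of *P2ry12* each, so its transcript was still measured well above the detection limit of 3 counts.

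*P2ry13* (ENSMUSG00000036362, chromosome 3, 59207892 to 59210882, minus strand) encodes another Gi-coupled ADP receptor and starts 5.39 kb beyond the end of *P2ry12*. Controls were at 1487, 1533, 2194 and 1509 CPM and mutants at 236, 185, 173 and 186 CPM, again with no overlap. The mean fell from 1681 ± 343 to 195 ± 28.0 CPM, 8.61-fold, with a log2 fold change of -3.11 (SE 0.20, adjusted p = 4.8e-05 in edgeR's test). Both ADP receptors fell, but by unequal amounts. The ratio of *P2ry13* to *P2ry12* within a library, which does not depend on how libraries are scaled, rose from -1.53 ± 0.10 to 0.21 ± 0.41 on the log2 scale, a difference of 1.74 (exact permutation p = 0.0286, two-sided, and 0.0286 after Benjamini-Hochberg adjustment over 6 ratios, the smallest that 4 against 4 allows, n = 4 each). Every control thus held more *P2ry12* than *P2ry13* reads, whereas 3 of the 4 mutants held more *P2ry13*, mutant 3 being at -0.23.

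*P2ry6* (ENSMUSG00000048779, chromosome 7, 100937630 to 100974649, minus strand), the UDP receptor linked to phagocytosis by microglia, behaved otherwise. It was at 268, 323, 374 and 388 CPM in controls and at 210, 270, 322 and 246 CPM in mutants. The groups overlapped, since mutants 2 and 3 were above control 1. Its log2 fold change of -0.37 (SE 0.18) made no call (adjusted p = 0.223 in edgeR's test). The ratio of *P2ry6* to *P2ry12* rose by 4.47 on the log2 scale, from -3.84 ± 0.26 to 0.63 ± 0.03 (exact permutation p = 0.0286, n = 4 each), so *P2ry6* reads outnumbered *P2ry12* reads in all 4 mutants and in no control. That rise follows from the fall of *P2ry12*, the denominator, and is no separate result about *P2ry6*.

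*P2ry14* (ENSMUSG00000036381, chromosome 3, 59113855 to 59153618, minus strand), a receptor for UDP-sugars, was sparse. It had 63, 40, 18 and 1 counts in controls (1.63, 1.04, 0.504 and 0.0269 CPM) and 166, 145, 76 and 111 counts in mutants (4.31, 3.13, 2.12 and 3.06 CPM). All mutants were above all controls, yet the log2 fold change of 1.97 (SE 0.86) made no call (adjusted p = 0.169 in edgeR's test). The controls were spread widely. Without control 4, which had 1 count, the log2 fold change was 1.62 (adjusted p = 0.0902 in edgeR's test). Without control 1, which had 63 counts, it was 2.58 (adjusted p = 0.118 in edgeR's test).

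*Gpr34* (ENSMUSG00000040229, chromosome X, 13632089 to 13640858, plus strand) encodes a receptor of the same branch of the family that responds to lysophosphatidylserine. It was at 1603, 1691, 2634 and 1626 CPM in controls and at 75.3, 83.6, 108 and 92.7 CPM in mutants, without overlap. Its mean fell 21-fold, from 1888 ± 499 to 89.9 ± 14.1 CPM, with a log2 fold change of -4.39 (SE 0.24, adjusted p = 3.1e-05 in edgeR's test). It is X-linked, and sex-linked expression divided the libraries as genotype did (above). It also lies within *Cask* on the opposite strand, sharing no exon with it, and *Cask* fell from 50.3 ± 12.9 to 9.85 ± 5.39 CPM (log2 fold change -2.35, SE 0.39, adjusted p = 0.00458). The libraries carry no strand, so a read of unspliced *Cask* RNA over a *Gpr34* exon would count for *Gpr34*. *Gpr82*, which also lies within *Cask* on the opposite strand and shares no exon with it, held 0 to 17 counts in a library. *Gpr34* held 60448 to 94156 counts in a control and 2899 to 3885 in a mutant. *Gpr82* was added after its values were seen, and the part of unspliced *Cask* RNA in the *Gpr34* values was not tested.

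**Figure D2:**
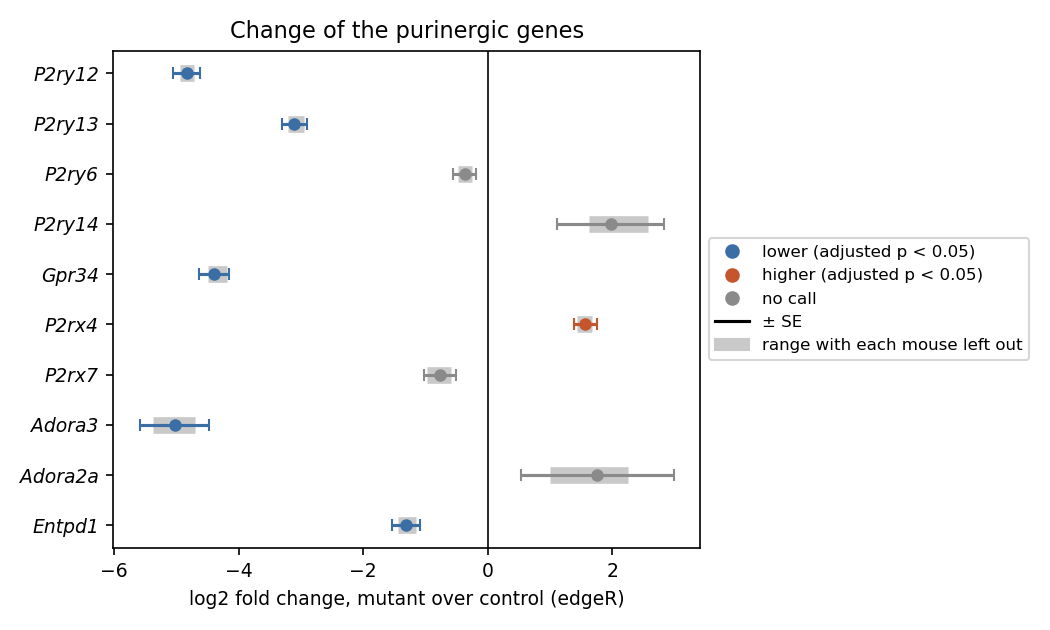
Log2 fold change of mutants over controls for each of the 10 genes (edgeR, point and SE), with the range obtained when each of the 8 mice was left out in turn as a grey band. *Adora3*, *P2ry12*, *Gpr34* and *P2ry13* lay between -5.03 and -3.11, *Entpd1* at -1.32 and *P2rx4* at 1.57, and the bands of *P2ry14* and *Adora2a*, the sparsest genes, were the widest of the 10.

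Both ATP-gated channels have been studied in microglia. P2X4 opens at low ATP and is known for its part in microglial responses to nerve injury, and P2X7 opens at high ATP and leads to inflammasome activation. *P2rx4* (ENSMUSG00000029470, chromosome 5, 122707544 to 122729738, plus strand) was the gene that rose. It was at 76.6, 66.5, 92.9 and 72.2 CPM in controls and at 242, 179, 285 and 207 CPM in mutants, and every mutant was above every control. The mean rose 2.96-fold, from 77.0 ± 11.4 to 228 ± 46.0 CPM, with a log2 fold change of 1.57 (SE 0.19, adjusted p = 9.4e-04 in edgeR's test).

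*P2rx7* (ENSMUSG00000029468, chromosome 5, 122643911 to 122691432, plus strand) ends 16.1 kb before *P2rx4* on the same strand. It was at 56.1, 78.3, 102 and 63.9 CPM in controls and at 44.4, 36.5, 62.1 and 33.5 CPM in mutants, and only mutant 3 reached the range of the controls. The log2 fold change of -0.77 (SE 0.25) made no call in edgeR's test (adjusted p = 0.0831). It was called lower by DESeq2 (-0.78, adjusted p = 0.0362), by edgeR with the replicate number as a block (-0.77, adjusted p = 0.0406) and by edgeR without mutant 3 (-0.98, adjusted p = 0.0411). The ratio of *P2rx7* to *P2rx4* went from -0.06 ± 0.31 to -2.39 ± 0.19 on the log2 scale, a difference of -2.33 (exact permutation p = 0.0286, n = 4 each). Controls held the 2 channels in nearly equal reads, and mutants held several times more *P2rx4*. The next gene beyond *P2rx4*, *Camkk2*, 1.43 kb away on the other strand, made no call (log2 fold change -0.41, SE 0.24, adjusted p = 0.295).

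*Adora3* (ENSMUSG00000000562, chromosome 3, 105870858 to 105908926, plus strand), the Gi-coupled A3 adenosine receptor, had the lowest log2 fold change of the 10 genes. It was at 27.3, 28.9, 39.9 and 35.5 CPM in controls, and at 0.234, 1.47, 1.67 and 0.635 CPM in mutants, where it had 9, 68, 60 and 23 counts. The groups were far apart. The mean fell 32.6-fold, from 32.9 ± 5.85 to 1.0 ± 0.681 CPM, with a log2 fold change of -5.03 (SE 0.56, adjusted p = 6.3e-04 in edgeR's test). Of its exons, 20.9% are shared with *Tmigd3* on the same strand, so its counts depend in part on how shared reads were assigned. *Tmigd3* was at 0.510 ± 0.433 CPM in controls and 0.220 ± 0.204 CPM in mutants.

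*Adora2a* (ENSMUSG00000020178, chromosome 10, 75316877 to 75334784, plus strand), the Gs-coupled adenosine receptor that is reported to make activated microglia withdraw their processes, was barely detected. Controls had 26, 18, 40 and 5 counts (0.672, 0.469, 1.12 and 0.135 CPM), and mutants had 62, 91, 164 and 0 (1.61, 1.97, 4.57 and 0 CPM). The 3 mutants with counts were above all controls and mutant 4 was below them. The log2 fold change of 1.76 (SE 1.22) made no call (adjusted p = 0.389 in edgeR's test). The ratio of *Adora2a* to *P2ry12* differed by 5.68 on the log2 scale with a prior count of 2 (exact permutation p = 0.0286, n = 4 each), but with a prior count of 0.5, which lowers the value of the mutant with 0 counts, p was 0.114. Much of this difference is the fall of *P2ry12*, the denominator.

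*Entpd1* (ENSMUSG00000048120, chromosome 19, 40612366 to 40741602, plus strand), which encodes the enzyme CD39, fell too. It was at 411, 590, 746 and 511 CPM in controls and at 250, 163, 255 and 240 CPM in mutants, and every mutant was below every control. The mean fell 2.49-fold, from 565 ± 141 to 227 ± 43.2 CPM, with a log2 fold change of -1.32 (SE 0.23, adjusted p = 0.00575 in edgeR's test). The ratio of *Entpd1* to *P2ry12* in the same library rose, from -3.12 ± 0.28 to 0.41 ± 0.40 on the log2 scale (difference 3.53, exact permutation p = 0.0286, n = 4 each). That rise follows from the larger fall of *P2ry12*, the denominator, and is no separate result about *Entpd1*.

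Because levels of different genes can be compared only per length, CPM was divided by the kilobases of exon of each gene. Summed over the 10 genes, this level was 3309 to 4781 CPM per kb in controls and 337 to 410 CPM per kb in mutants. In controls *P2ry12* made up 51.3% ± 2.25 of the sum, *Gpr34* 24.1% ± 1.71 and *P2ry13* 17.9% ± 0.453, while *P2ry6* made up 3.19% ± 0.576 and *Entpd1* 2.72% ± 0.413 (SD, n = 4). In mutants no gene led so clearly. *P2ry6* made up 25.2% ± 3.03, *P2ry13* 21.7% ± 4.27, *P2ry12* 18.5% ± 1.89, *Gpr34* 12% ± 1.08, *Entpd1* 11.3% ± 1.93 and *P2rx4* 9.0% ± 1.17, the latter from 0.297% ± 0.0208 in controls.

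The order of the levels changed accordingly. In controls it ran from *P2ry12* at 1899 ± 309 CPM per kb through *Gpr34*, *P2ry13*, *P2ry6*, *Entpd1*, *P2rx7*, *P2rx4*, *Adora3* and *Adora2a* to *P2ry14* at 0.0724 ± 0.0624. The ranges of these neighbours over the mice overlapped between *Gpr34* and *P2ry13*, between *P2ry6* and *Entpd1*, from *P2rx7* through *P2rx4* to *Adora3*, and between *Adora2a* and *P2ry14*. Within each control, however, *Gpr34* took a larger share of the sum (22.7% to 26.4%) than *P2ry13* (17.4% to 18.3%). *P2rx4* was likewise above *Adora3* in each control. The places of *P2ry6* and *Entpd1*, of *P2rx7* and *P2rx4*, and of the sparse *Adora2a* and *P2ry14* are not settled. In mutants *P2ry6* at 90.7 ± 16.3 CPM per kb, *P2ry13* at 77.2 ± 11.1 and *P2ry12* at 66.4 ± 10.5 stood first, each overlapping the next. They were followed by *Gpr34*, *Entpd1* and *P2rx4*, again overlapping in turn, then by *P2rx7* alone, and last by *Adora2a*, *P2ry14* and *Adora3*, all at 1.49 CPM per kb or less in every library.

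**Figure D3:**
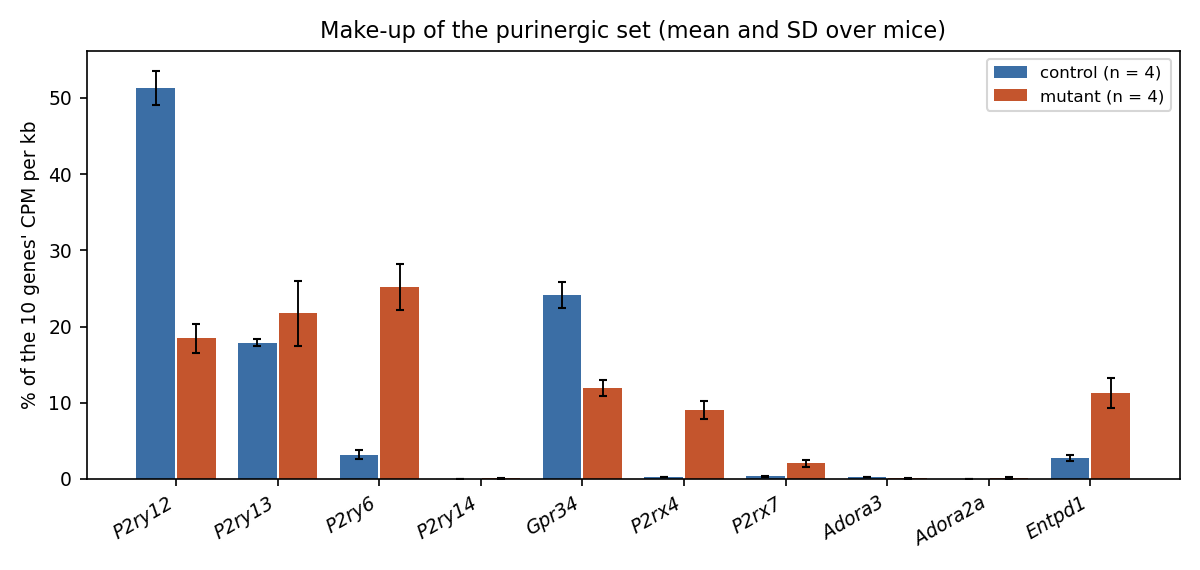
Share of each gene in the summed CPM per kilobase of exon of the 10 purinergic genes, as mean (bar) and SD (line) over 4 mice per group. *P2ry12* went from 51.3% to 18.5%, and *P2ry6* from 3.19% to 25.2% although its own level made no call.

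*P2ry12*, *P2ry13* and *P2ry14* lie within 1 long gene, *Med12l* (ENSMUSG00000056476, chromosome 3, 59005825 to 59318682, plus strand), which encodes a subunit of the Mediator complex that bridges transcription factors and RNA polymerase. All 3 receptors run on the opposite strand, as does *Gpr171* within the same gene. *P2ry12* shares 9 exonic bases with *Med12l*, and *P2ry13*, *P2ry14* and *Gpr171* share none. *Med12l* was at 33.9, 33.5, 42.3 and 33.4 CPM in controls and at 2.86, 3.65, 2.06 and 4.64 CPM in mutants. It fell too, with a log2 fold change of -3.44 (SE 0.28, adjusted p = 1.1e-04 in edgeR's test).

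The fall of *P2ry12* exceeded that of the gene around it. The log2 ratio of *P2ry12* to *Med12l* was 6.96 to 7.14 in controls and 5.10 to 6.58 in mutants, a difference of -1.37 between the means (exact permutation p = 0.0286, n = 4 each). Leaving out any 1 control took p to 0.0571. At the other end of the locus *Gpr171*, a small receptor gene, was at 1.31 ± 0.821 CPM in controls and 5.64 ± 1.03 CPM in mutants and was called higher (log2 fold change 2.10, SE 0.47, adjusted p = 0.0203), although the call was lost in 3 of 8 fits that left out a mouse. Summed markers of T and NK cells were also higher in every mutant, at 37.5 to 128 CPM against 10.1 to 30.5 CPM, although *Cd8a* reached 0 in 1 mutant, and their part in the *Gpr171* and *P2ry14* values was not tested.

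Genes of 1 locus thus went in both directions. *Igsf10*, which overlaps the far end of *Med12l*, was called lower (4.08 ± 1.11 to 0.120 ± 0.223 CPM, log2 fold change -5.00, SE 1.27, adjusted p = 0.0344), but 19.8% of its exons overlap other genes, chiefly *Med12l* on the opposite strand, and the call was lost in 7 of 8 fits that left out a mouse. Reads carry no strand, so a read of unspliced *Med12l* RNA over an exon of a receptor would count for the receptor. Likewise, a read of unspliced RNA of a receptor over a *Med12l* exon would count for *Med12l*. *P2ry12* was at 4835 CPM and *Med12l* at 35.8 CPM in controls. The part of such reads in the *Med12l* values and in the ratio of *P2ry12* to *Med12l* was not tested. *P2ry14* and *Gpr171*, within the same gene, held at most 96 counts in a control, and *P2ry12* held 160872 or more. The part of unspliced *Med12l* RNA in the values of the receptors was not tested, and for the sparse genes the sources cannot be told apart.

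**Figure D4:**
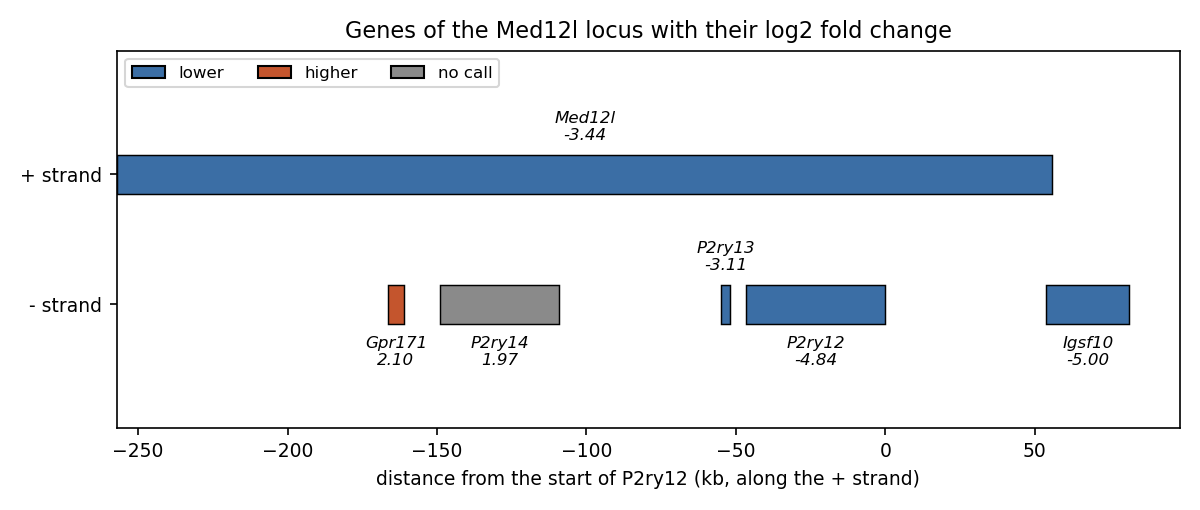
The *Med12l* locus drawn to scale, with distance in kb from the start of *P2ry12* along the plus strand and genes on the plus strand above those on the minus strand, coloured by call and marked with the log2 fold change of mutants over controls. The nearby *P2ry12* (-4.84) and *P2ry13* (-3.11) were lower, *Gpr171* (2.10) at the other end was higher, and *P2ry14* (1.97) between them made no call.

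The genes whose profile over the 8 libraries was most like that of *P2ry12* were found by the mean absolute difference in log2((CPM + 0.1)/(control mean + 0.1)) over 10771 well expressed genes. With 2 groups this far apart, the measure depends largely on how near a gene's log2 fold change lies to that of *P2ry12*. It is a description and not a test of shared regulation. The 5 nearest were *Golm1* (difference 0.220), *Selplg* (0.242), *Gpr34* (0.289), *Serpinf1* (0.311) and *Gm3373* (0.385). *Selplg*, the selectin ligand PSGL-1, went from 6781 ± 1732 to 212 ± 51.2 CPM, and *Golm1*, a Golgi membrane protein, from 391 ± 95.7 to 11.3 ± 3.25 CPM. Among the purinergic genes *Adora3* came 7th in likeness and *P2ry13*, although it is the neighbour of *P2ry12*, 69th.

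The rest of the pathway was examined through 50 further genes in 9 lists, of which 43 were tested. In edgeR's test 7 were lower, 1 was higher and 35 made no call, against the background shares of 7.97% and 4.36%, and the median log2 fold change was -0.11. An unadjusted p under 0.05 was reached by 17 of the 43, against 28.7% of all tested genes. DESeq2 called 5 of the same 43 higher and 10 lower, against 9.99% and 12.4% of the 20153 genes.

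Among the other receptors, *P2rx1*, an ATP-gated channel best known in platelets and smooth muscle, was at 41.6, 39.0, 49.4 and 47.7 CPM in controls and 1.74, 1.53, 0.111 and 2.93 CPM in mutants. Its log2 fold change was -4.81 (SE 0.69, adjusted p = 0.00231 in edgeR's test), of the order of that of *P2ry12*. The 4 platelet markers summed to 36.3 to 83.7 CPM in controls and 5.45 to 11.6 CPM in mutants. This fall was mainly that of *Gp9* (53.8 to 1.56 CPM), while *Itga2b* was 4.93 and 4.39 CPM and *Gp1bb* was at 0 in every control. *Ppbp* went the other way (0.347 to 1.41 CPM) without a call. The part of platelet RNA in *P2rx1* was not tested. *Adora2b*, the low-affinity A2B adenosine receptor, was higher (6.53 ± 1.13 to 12.3 ± 1.91 CPM, log2 fold change 0.91, SE 0.23, adjusted p = 0.0342), but the call was lost in 5 of 8 fits that left out a mouse. *Adora1*, the A1 receptor, made no call (adjusted p = 0.543 in edgeR's test) and was highest in control 1 and mutant 1. In their groups these libraries had the highest summed markers of astrocytes (1343 and 1087 CPM), neurons (270 and 270 CPM) and oligodendrocytes (4277 and 3558 CPM). The part of such RNA in *Adora1* was not tested.

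None of the 4 other P2Y receptors tested was called by edgeR. An unadjusted p under 0.05 was reached by 2 and DESeq2 called 1 lower, against 28.7% and 12.4% of all tested genes. The most abundant, *P2ry10b*, was at 18.3 ± 5.59 CPM in controls and 6.53 ± 5.35 CPM in mutants (adjusted p = 0.167), and *P2ry2*, 21.9 kb from *P2ry6*, at 6.42 ± 2.73 and 1.53 ± 1.74 CPM (adjusted p = 0.126). *Fchsd2*, further along the same side, fell from 124 ± 21.9 to 13.2 ± 6.93 CPM (log2 fold change -3.24, SE 0.48, adjusted p = 0.00269). *P2ry6* thus made no call beside a gene that fell, 118 kb away.

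Other enzymes work on the cell surface beside or after CD39, and none of the 6 tested was called by edgeR. An unadjusted p under 0.05 was reached by 1 and DESeq2 called 1 higher, against 28.7% and 9.99% of all tested genes. *Enpp2*, the secreted enzyme autotaxin, was abundant (7494 ± 2804 CPM in controls, 11280 ± 2681 CPM in mutants, adjusted p = 0.277), and *Enpp1*, which cuts ATP to AMP, was at 3.18 ± 1.51 and 6.81 ± 1.64 CPM (adjusted p = 0.0934). *Nt5e*, the enzyme CD73 that makes adenosine from AMP, was at 0.984 ± 1.2 and 0.879 ± 1.10 CPM, and its detection was uneven, with 0 counts in 3 libraries and 4 to 105 in the others. The 4 intracellular NTPDases made no call by edgeR either. Of these, 1 (*Entpd7*, 7.45 ± 2.04 to 16.3 ± 5.90 CPM, adjusted p = 0.0535) had an unadjusted p under 0.05 and was called higher by DESeq2, against the same shares of 28.7% and 9.99%.

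Genes that clear nucleosides moved in part. *Slc29a3*, the equilibrative nucleoside transporter of lysosomes, fell from 540 ± 122 to 139 ± 6.14 CPM (log2 fold change -1.95, SE 0.18, adjusted p = 2.6e-04 in edgeR's test), while the plasma membrane transporter *Slc29a1* was at 145 ± 32.0 and 110 ± 9.59 CPM (adjusted p = 0.176). *Pnp*, the phosphorylase that splits inosine and guanosine, fell from 149 ± 42.9 to 63.8 ± 8.58 CPM (log2 fold change -1.22, SE 0.22, adjusted p = 0.00745), with 21.9% of its exons shared with other genes. *Adk*, the kinase that removes adenosine inside the cell, was higher in every mutant (24.8 ± 7.65 against 43.2 ± 4.14 CPM) and made no call in edgeR's test (adjusted p = 0.0527), while DESeq2 called it higher (adjusted p = 0.0073).

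None of 7 genes for ATP release was called by edgeR. An unadjusted p under 0.05 was reached by 3, against 28.7% of all tested genes. DESeq2 called 1 higher and 1 lower, against 9.99% and 12.4%. *Lrrc8d*, a subunit of volume-regulated channels, was at 63.5 ± 7.20 and 35.5 ± 13.1 CPM (adjusted p = 0.0604), and the connexin gene *Gja1*, also an astrocyte marker, at 29.1 ± 26.5 and 23.1 ± 18.2 CPM.

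Downstream of P2RY12, 4 of 11 genes were lower and none higher in edgeR's test, against 7.97% and 4.36% of all tested genes. An unadjusted p under 0.05 was reached by 5 of 11, against 28.7% of all, and DESeq2 called 5 lower, against 12.4%. *Pik3r5*, the regulatory subunit of the Gβγ-responsive PI3Kγ, fell from 143 ± 47.7 to 25.5 ± 5.71 CPM (log2 fold change -2.49, SE 0.27, adjusted p = 6.0e-04), and *Pik3cg*, its catalytic subunit, from 141 ± 20.6 to 57.5 ± 15.3 CPM (log2 fold change -1.30, SE 0.22, adjusted p = 0.00520). *Gng10*, a G protein γ subunit, fell from 32.6 ± 8.11 to 7.32 ± 0.715 CPM (log2 fold change -2.15, SE 0.22, adjusted p = 4.1e-04), but 72.0% of its exons are shared with *Gm20503*. *Kcnk13*, the potassium channel THIK-1 known for its part in process surveillance, fell from 122 ± 21 to 66.0 ± 18.8 CPM (log2 fold change -0.89, SE 0.22, adjusted p = 0.0328), a call that was lost in 6 of 8 fits that left out a mouse. The abundant Gi subunit *Gnai2* was at 1057 ± 148 and 794 ± 54.5 CPM (adjusted p = 0.106) and *Gnb1*, a β subunit, at 137 ± 4.85 and 153 ± 32.6 CPM (adjusted p = 0.598).

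**Figure D5:**
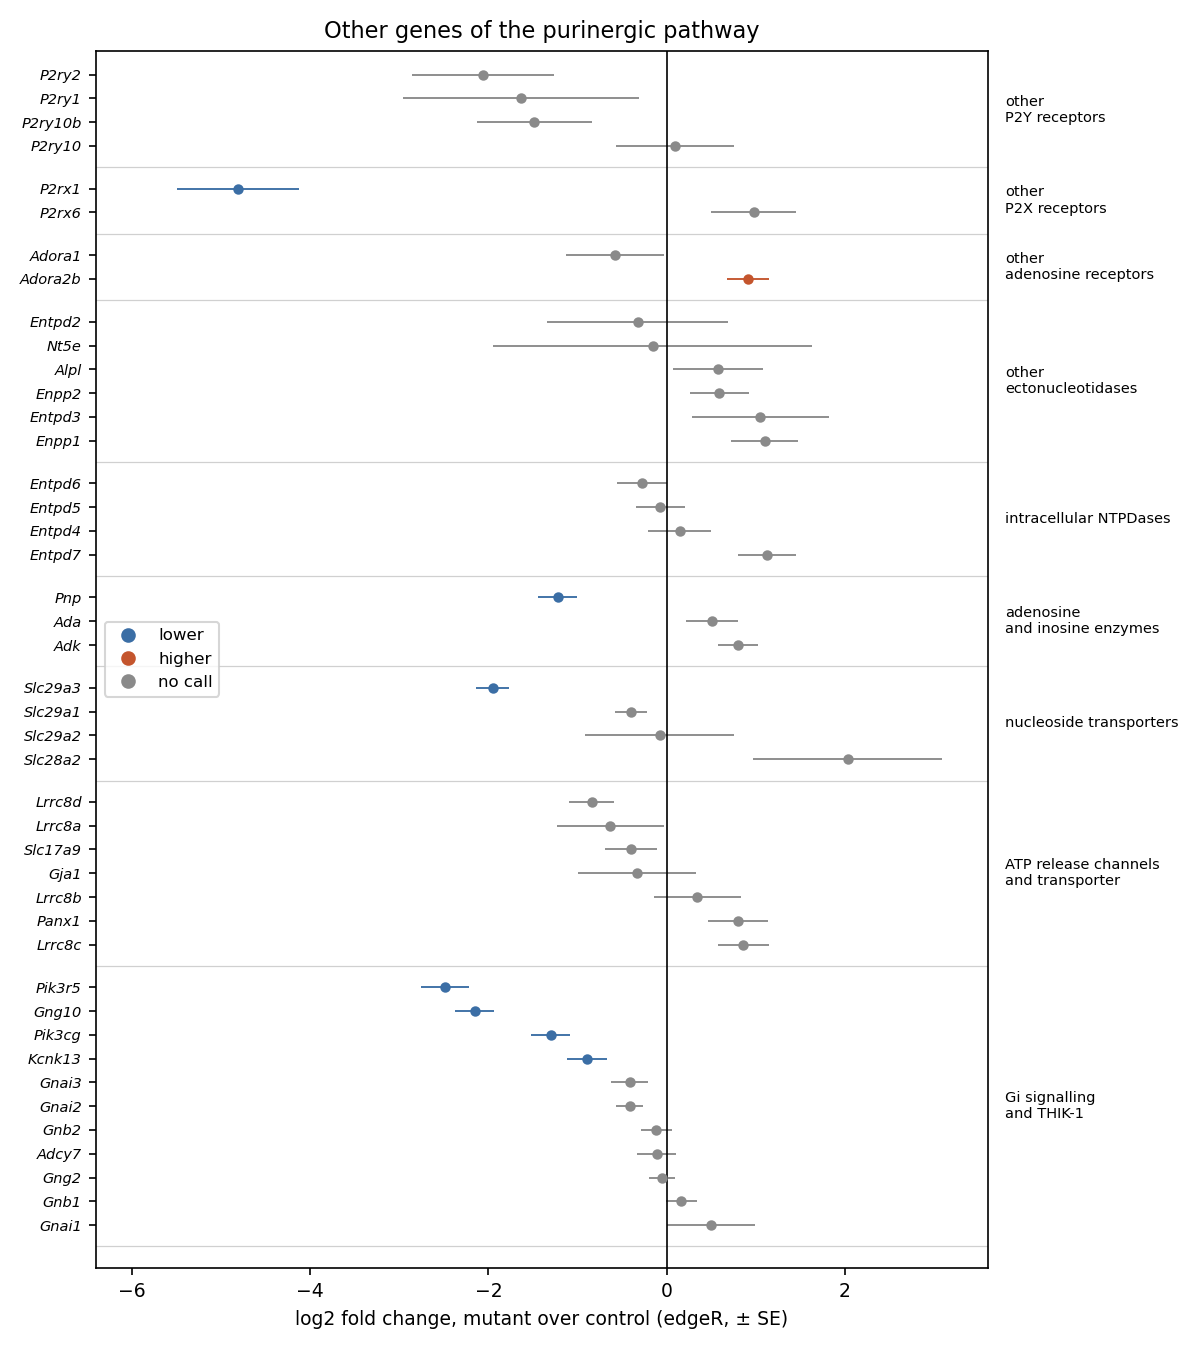
Log2 fold change (edgeR, point and SE) of mutants over controls for the 43 tested genes of the 9 further lists, coloured by call. *P2rx1* at -4.81 stood apart on the left, 4 genes of the Gi and THIK-1 list were lower, and no gene of the ectonucleotidase, NTPDase or ATP release lists was called.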

How the data were processed

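Per the labels and the Methods, the authors used Rsubread for alignment (mm10) and featureCounts for counting, and deposited raw counts, whole numbers per gene and library without normalization. The labels also name DESeq2 1.28. The strand setting and annotation of the counting are not given in the sources used here. The labels describe single-end Nextera XT libraries without strand and the Methods paired-end NEBNext Ultra II libraries from polyA RNA, and the file header names a single read file per library. For the Smad2/3 experiment the Methods cite a different deposit, and the match to these libraries rests on genotype and cell type. The authors' deposited comparison (log2 fold changes and p-values) was not used.

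Counts were tested here with edgeR 4.0.16 (R 4.3.3), on genes holding 10 or more counts in 4 or more of 8 libraries, with TMM scaling, glmQLFit and glmQLFTest without a block, and Benjamini-Hochberg adjustment over 20153 genes. CPM used the TMM-scaled library sizes, and the SE of a log2 fold change is its size over the square root of F. Replicates are single mice. Total counts ran from 35639502 to 41946479, so a gene with 3 counts stood at 0.0648 to 0.0839 CPM. This floor covers counting error only, since no collapsing by molecular identifiers is described. The biological coefficient of variation was 0.542.

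Ratios were log2((count + 2)/(count + 2)) per library, compared by two-sided exact permutation over 70 arrangements. Gene models and shared exons came from GENCODE M21 on GRCm38, and promoters from RefSeq on GRCm38.p6. Within 50-base words, *Adora3* shared 19.8% with other genes' transcripts, and the other 9 genes at most 1.63%.

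The members and lists were chosen with earlier results of these data known. Named are the 10 genes, genes that overlap them, called genes of the lists with up to 2 abundant uncalled ones per list, the targeted and sex-linked genes, the 5 genes most like *P2ry12*, and markers of cell types; *Nt5e*, *Entpd7* and *Gpr82* were added after their values were seen. Not every listed gene is reported here. Alternatives were DESeq2 1.42.0 on all listed genes, RLE size factors, library totals, no filter, 10 counts in all libraries, the replicate block, and each mouse left out, and for ratios and levels another prior count, medians, paired differences and the longest transcript. Tables and figures were made in Python 3.11.15.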

Additional observations from a re-analysis of the deposited data

Results flagged for a closer look

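In groups of 4 mice, a value was marked when its gap to the nearest other value took up more of the group's whole range than Dixon's 95% critical value allows. Of 58 groups checked, 6 held such a value, and chance marks about 1 in 20 groups.

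Control 3 stood apart for 3 genes with high expression in controls. *P2ry13* was at 2194 CPM there against 1487 to 1533 CPM in the other controls, *Gpr34* at 2634 CPM against 1603 to 1691 CPM, and *Med12l* at 42.3 CPM against 33.4 to 33.9 CPM. *P2ry12* was also highest in that mouse, at 5979 CPM, and so was the sum of microglial markers, at 42213 CPM. Control 3 also had the lowest TMM factor, 0.874 against 0.979 to 1.11 in the other libraries, which raises all its CPM values. Whether the marks hold without this scaling was not tested. Without control 3 the log2 fold changes of *P2ry13* and *Gpr34* were -2.95 and -4.19, and both remained called.

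Mutant 2 had the lowest *Entpd1*, at 163 CPM, while the other mutants lay between 240 and 255 CPM. It also had 0.454 CPM of *Igsf10*, where the others had at most 0.0260 CPM. In mutant 4 the log2 ratio of *Adora2a* to *P2ry12* was -11.51 against -6.43 to -5.46, as *Adora2a* had 0 counts there.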

How the results depend on the processing

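Over all alternatives, 134 of 137 refitted values for the 10 genes kept their direction and their side of the threshold, none reversed, and 3 gained a call, all for *P2rx7*: DESeq2 (-0.78), the replicate block (-0.77) and the fit without mutant 3. Left out in turn, the mice gave *P2rx7* values from -0.98 to -0.58. With 10 counts required in every library, *Adora3*, *P2ry14* and *Adora2a* were not tested. The 13 called pathway and neighbouring genes kept their call in 158 of 180 values and lost it in 22. Scaling by library totals moved the median of all genes from 0.01 to 0.13.

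Other pathway genes called higher numbered 5 with DESeq2, 2 with RLE factors, library totals or the replicate block, 3 with 10 counts in all libraries, 0 with no filter (1 as reported) and 0 to 1 with a mouse left out. DESeq2 on all listed genes called 11 of them lower, and 2089 genes higher and 2662 lower in all. In edgeR's test, which called 878 higher and 1607 lower with all mice, leaving out a mouse gave 525 to 1024 and 1005 to 1587. The counts moved by over 1.5 times without control 2 (525 and 1047) and control 3 (562 and 1005), and for genes called higher without mutant 2 (573). With the longest transcript as length, 6 of 10 genes kept their place in the mutant order.

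For the ratios, with medians in place of means (exact permutation p = 0.0571 each) the differences were -1.52 (*P2ry12* to *Med12l*), 1.67 (*P2ry13* to *P2ry12*), 4.47 (*P2ry6*), -2.35 (*P2rx7* to *P2rx4*), 6.40 (*Adora2a*) and 3.53 (*Entpd1*). As paired differences (replicate block) the means were -1.37, 1.74, 4.47, -2.33, 5.68 and 3.53 in the same order, each with an exact permutation p of 0.125, the smallest that 4 pairs allow. With a mouse left out *P2ry12* to *Med12l* ran from -1.66 to -1.17 and *Adora2a* to *P2ry12* from 5.01 to 7.03, and the latter was 5.31 with a prior count of 0.5. The cause of these shifts was not tested.

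Same-numbered libraries deviated together with correlations of 0.166, 0.0183, 0.144 and 0.114, and 6 of 8 correlated best with their own number. The labels do not say what a number marks, and because 1 pair was under 0.1 the test without the block was kept, so a shared source of same-numbered libraries is possible. With the replicate block 2383 genes were called, against 2485 without it.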
